A study of Mus musculus with 9 samples.

Results

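Aminoacyl-tRNA synthetases are the enzymes that attach each amino acid to its own tRNA, the step that supplies the ribosome with charged tRNA. In the gene table, 37 of 55335 rows carried the symbol of such an enzyme, chosen by symbol alone: a letter for the amino acid followed by "ars" with or without a final 1 or 2, the fused glutamate-proline enzyme Eprs, and the phenylalanine subunits Farsa and Farsb. Of these, 20 are genes of the cytosolic enzymes and 17, whose symbols end in 2, are genes of the mitochondrial enzymes. Gars and Kars, counted here as cytosolic, encode both the cytosolic and the mitochondrial forms for glycine and lysine.

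The genes were measured by RNA-seq in wild-type bone marrow-derived macrophages (BMDMs), which grow from mouse marrow under M-CSF, the macrophage growth factor. The marrow came from male C57BL/6 mice aged 4 to 6 weeks and was kept with 20 ng/mL M-CSF for 5 days. Each of 3 groups had 3 libraries, all labelled 6 h: Control in medium alone, Model with lipopolysaccharide (LPS) and interferon-γ (IFN-γ), and M+AnxA5 with LPS, IFN-γ and the recombinant protein annexin A5 (AnxA5). In such cultures LPS was used at 1 µg/mL and IFN-γ at 30 ng/mL. The amount of AnxA5 in the sequenced cells is not given in the sources used here, nor is whether the libraries of a group came from separate animals or cultures. If they did not, the p-values cover technical spread alone.

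The cytosolic enzymes charge tRNA for translation of nuclear genes, and the separate mitochondrial set, also encoded in the nucleus, charges tRNA for the few proteins made inside mitochondria. Several cytosolic enzymes sit together in the multi-synthetase complex, held by scaffold proteins. Some have further roles that are known mainly from human cells: WARS, the tryptophan enzyme, is a classic IFN-γ-induced gene, and EPRS joins the GAIT complex that restrains translation of inflammatory mRNAs in IFN-γ-treated myeloid cells. Many cytosolic synthetase genes are also known targets of ATF4, the transcription factor of the integrated stress response, which answers a shortage of amino acids.

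Promoter sequences were at hand for 27 of the 37 genes (RefSeq, build GRCm38.p6, 250 bases before to 50 bases after the start). They are shown because ATF4 and the IFN-γ pathway are often named as regulators of these genes. The composite element bound by ATF4 with C/EBP proteins, searched as TGATGNAA on both strands, was found in 5 of these 27 windows (18.5%), against 4.06% of all 27025 promoter windows. All 5 windows belonged to cytosolic enzymes (5 of 13) and none to mitochondrial enzymes (0 of 14). The window of Aars held 2 elements, with first bases at -112 and 10 from the start, of which that at 10 is shown. The 30-base stretches below, 1 for each of the 5 genes, run 5′ to 3′ on the strand of the gene, and the capitals mark the element, which reads in antisense in each stretch but that of Yars.
Aars (chr8:111033840-111033869, plus strand, first element base at 10 from the start): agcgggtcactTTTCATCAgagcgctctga
Gars (chr6:55037960-55037989, plus strand, -30): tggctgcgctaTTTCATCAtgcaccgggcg
Iars (chr13:49682126-49682155, plus strand, 8): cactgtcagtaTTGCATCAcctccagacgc
Tars (chr15:11399655-11399684, minus strand, -15): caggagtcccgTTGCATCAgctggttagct
Yars (chr4:129189895-129189924, plus strand, 4): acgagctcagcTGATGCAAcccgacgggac

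The γ-activated site (GAS) of IFN-γ-responsive promoters, searched as TTCNNNGAA, which reads the same on both strands, was in 3 of the 27 windows (11.1%, against 8.47% of all windows), those of Aars, Kars and Nars2. The Kars and Aars sites are shown because these genes recur in the results below, again with the element in capitals.
Kars (chr8:112011345-112011374, minus strand, first base at -9): gcccgccctctTTCCCGGAAgaggcaggac
Aars (chr8:111033743-111033772, plus strand, -88): gcccaggagccTTCCCAGAAaccggcttgt
The interferon-stimulated response element (ISRE), searched as GAAANNGAAA on both strands, was in the window of Qars alone, 3.7% of the 27 against 3.49% of all windows. An E-box, CACGTG on both strands, was in 18.5% of the members' windows (Aars, Farsb, Iars, Tars and the mitochondrial Ears2) against 7.24% of all windows. Such matches describe the letters in these windows and not binding. No window was matched to Wars, Rars, Cars, Hars, Hars2, Lars, Nars, Pars2 or Vars, so these genes are named without sequence.

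Levels are given as FPKM, fragment counts divided by transcript length and by the library's mapped total, a unit that allows genes to be compared per length. From the smallest steps of the values, 1 fragment on a transcript of 1 kb was worth 0.0282 to 0.0389 FPKM in the 9 libraries. A gene was tested where at least 3 of the 9 libraries reached 1 FPKM, which 11657 genes did, among them all 20 cytosolic genes and 13 of the 17 mitochondrial ones. The mitochondrial genes Ears2, Mars2, Nars2 and Pars2 did not pass, and Lars2 and Vars2 passed through the Control libraries alone. A gene is called higher or lower, and written as having risen or fallen, where the limma adjusted p was under 0.05 and the fold over 1.2 on the log2(FPKM + 1) scale, a scale that understates the change of low genes. Ratios of mean FPKM are given beside it. The share of FPKM held by the ribosomal transcripts Gm23935 and AY036118 ran from 0.53% to 7.47% and was highest in the library numbered 2 of each group, so that counts are also given without those 3 libraries, an alternative chosen after seeing the data.

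In resting macrophages, the cytosolic synthetase genes spanned 4.37 FPKM for the cysteine enzyme Cars to 37.5 ± 1.91 FPKM (SD, n = 3) for the asparagine enzyme Nars. Gars, at 25.6 ± 1.46 FPKM, and the arginine enzyme Rars, at 23.8 ± 1.03 FPKM, followed Nars, and their libraries lay 24.3, 27.2 and 25.3 against 24.2, 24.5 and 22.6, close enough to overlap. Wars stood near the foot of the order at 7.15 ± 0.293 FPKM, the 17th of the 20 cytosolic genes. Mitochondrial genes were lower, from 0.663 ± 0.163 FPKM for the proline enzyme Pars2 to 6.96 ± 0.0929 FPKM for the isoleucine enzyme Iars2. Together the 17 mitochondrial genes made up 13.0% ± 0.41 (SD, n = 3) of the summed FPKM of all 37 genes in Control.

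**Figure D1:**
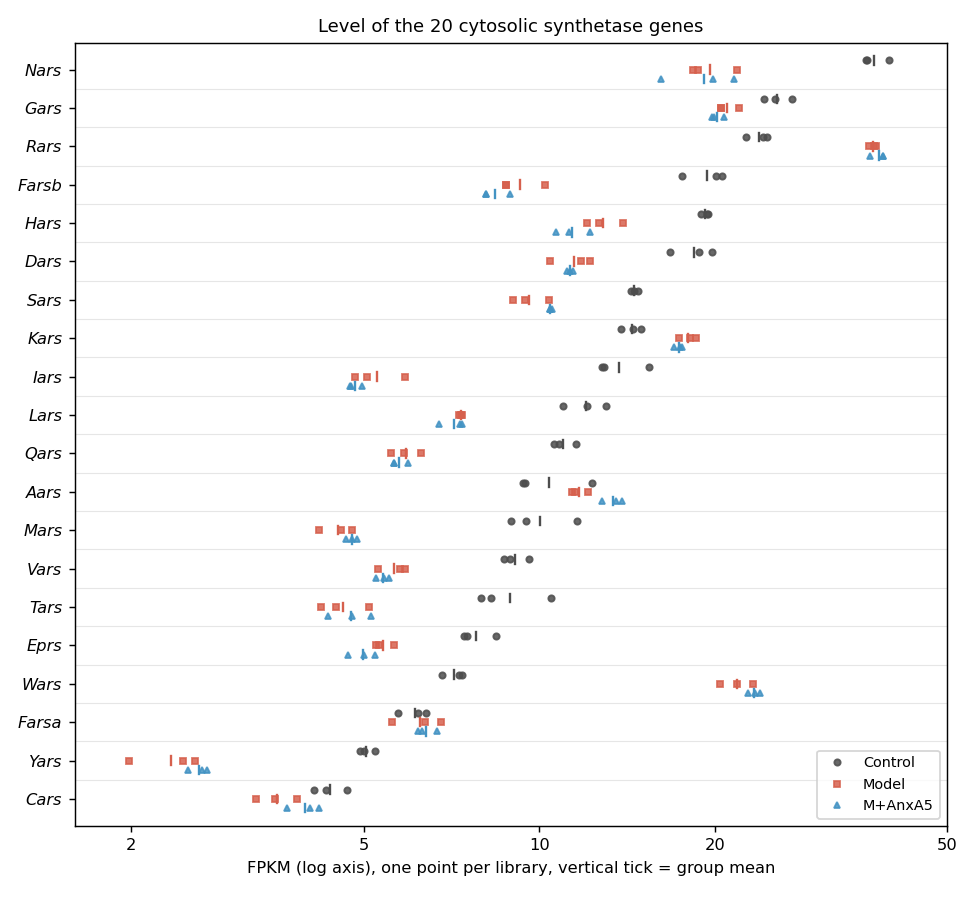
FPKM (log axis) of the 20 cytosolic synthetase genes, ordered by their Control mean, with 1 point per library in Control (circles), Model (squares) and M+AnxA5 (triangles) and a vertical tick at each group mean. Wars, Rars and Kars lie to the right of Control in both stimulated groups, whereas Nars moves from 37.5 to 19.6 FPKM.

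With LPS and IFN-γ, 3 cytosolic synthetase genes rose (Wars, Rars and Kars) and 27 synthetase genes fell, 14 cytosolic and 13 mitochondrial. Beside this stands a broad fall over all genes tested, of which 16.5% were called higher and 60.3% lower in the Model libraries, with a median log2 fold change of -0.45. The median of the 33 synthetase genes tested was -0.58, and 22 of them lay below the median of all genes. The falls thus lie on the common direction, somewhat beyond the typical gene, and the 3 rises stand against it. Not called were Aars, Farsa and Cars. Because FPKM are shares of a library and the samples are bulk RNA, fewer cells of a type and less RNA per cell cannot be told apart.

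The fall depends on how libraries are scaled. Upper-quartile scaling moved the median of all genes to -0.24 and quantile normalization to -0.10, and the lower share of all calls from 78.5% to 67.8% and 58.8%. For the synthetase genes, the 3 higher and 27 lower calls became 4 and 21 under upper-quartile scaling (all genes 21.7% higher and 45.7% lower), and 5 and 15 under quantile normalization (25.3% and 36.1%). Relative to the median of all genes, the median of the 33 moved little, at -0.14 as deposited and -0.13 under both rescalings. Wars, Rars and Kars were called higher under every alternative tried. Without the 3 libraries numbered 2 there were 4 higher and 26 lower calls, Aars being added and Wars2 lost. Of all 11657 genes, 1878 were higher and 6854 lower in that fit. Without any filter, where all 37 genes were tested, 3 were higher and 28 lower, against 7.45% and 28.4% of the 29032 genes in that fit.

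Wars showed the largest rise of the family. Its 3 Control values were 6.82, 7.36 and 7.28 FPKM, against 21.8, 23.2 and 20.4 in Model and 23.4, 23.9 and 22.8 in M+AnxA5. The Control libraries lay far below all 6 stimulated ones, without overlap. The Model mean was 3.05 times that of Control (log2 fold change 1.48, standard error 0.05, limma adjusted p = 1.76e-08), which placed Wars 626th of the 11657 genes by log2 fold change. In the order of cytosolic levels it moved from 17th in Control to 2nd in Model, where its 21.8 ± 1.41 FPKM overlapped the 20.998 ± 0.861 of Gars. Its share of the summed cytosolic FPKM went from 2.57% ± 0.08 to 9.76% ± 0.50. Wars lies at chr12:108860030-108894174 on the minus strand (GRCm38, GENCODE M21) and shares 544 bases with Wdr25 on the other strand.

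Rars, which charges arginine and belongs to the multi-synthetase complex, was the second to rise. Its libraries read 24.2, 24.5 and 22.6 FPKM in Control, 37.5, 37.7 and 36.8 in Model and 36.9, 38.8 and 38.9 in M+AnxA5. Control and stimulated libraries did not overlap, and the ratio of means in Model was 1.57 (log2 fold change 0.63, standard error 0.04, adjusted p = 1.07e-06). It became the most abundant synthetase transcript per length, taking the place that Nars held in Control. Kars, the lysine enzyme, had 13.8, 14.9 and 14.5 FPKM in Control, 18.1, 18.5 and 17.3 in Model and 16.999, 17.4 and 17.6 in M+AnxA5. The rise of Kars in Model was smaller but also without overlap (ratio 1.25, log2 fold change 0.30, standard error 0.05, adjusted p = 0.000196).

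Aars and Farsa were close to level. Aars, the alanine enzyme, read 9.44, 12.3 and 9.39 FPKM in Control and 11.5, 11.4 and 12.1 in Model. Control replicate 2 was above all 3 Model values and the other Control values below them, so the groups overlapped and Aars was not called (log2 fold change 0.16, adjusted p = 0.125). Without Control replicate 2 it was called higher, at a log2 fold change of 0.28 (adjusted p = 0.0015). Aars shares 1326 bases of transcript sequence with Exosc6 on the same strand, and how fragments there were divided between both genes is not given, so its values are uncertain. Farsa, the catalytic subunit of the phenylalanine enzyme, had 6.41, 5.74 and 6.198 FPKM in Control and 6.78, 6.38 and 5.59 in Model (log2 fold change 0.02, 95% confidence interval -0.14 to 0.19). Under quantile normalization both Aars (0.47) and Farsa (0.41) were called higher.

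Iars, the isoleucine enzyme of the complex, fell most on the log2 scale. It read 12.8, 15.4 and 12.9 FPKM in Control, 5.06, 5.896 and 4.84 in Model and 4.97, 4.75 and 4.75 in M+AnxA5. Every stimulated library lay under every Control library, and the Model mean was 0.384 of the Control mean (log2 fold change -1.23, standard error 0.08, adjusted p = 1.05e-06). A processed pseudogene, Gm4849, matches Iars over 1656 bases at 96.0% identity but never exceeded 0.0739 FPKM. Farsb, the other subunit of the phenylalanine enzyme, read 17.6, 20.1 and 20.6 FPKM in Control and 8.77, 10.2 and 8.77 in Model. Its ratio of 0.477 (log2 fold change -0.99, adjusted p = 2.8e-06) stood beside 1.02 for Farsa, its partner in the same enzyme, though the difference between both genes was not tested. Farsb shares 2315 bases of its gene span with Sgpp2 on the other strand.

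Mars, Nars and Yars completed the 5 largest falls on the log2 scale. The methionine enzyme Mars had 8.95, 11.6 and 9.49 FPKM in Control and 4.196, 4.77 and 4.58 in Model, a ratio of 0.451 (log2 fold change -0.99, adjusted p = 5.77e-06). Nars had 36.5, 39.7 and 36.3 FPKM in Control and 18.7, 18.3 and 21.8 in Model, a ratio of 0.523 (log2 fold change -0.91, adjusted p = 3.48e-05). Yars, the tyrosine enzyme, had 4.92, 5.22 and 5.02 FPKM in Control and 1.98, 2.57 and 2.46 in Model, a ratio of 0.462 (log2 fold change -0.86, adjusted p = 4.66e-06). In all 3 genes, no Model library reached the lowest Control library. Over the family, 28 of the 33 tested genes had every Model library under every Control library and 3 had every one above, where 65.2% and 18.6% of all genes tested did. Lars2 and Vars2, among the 28, passed the filter through Control alone and so had to differ.

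**Figure D2:**
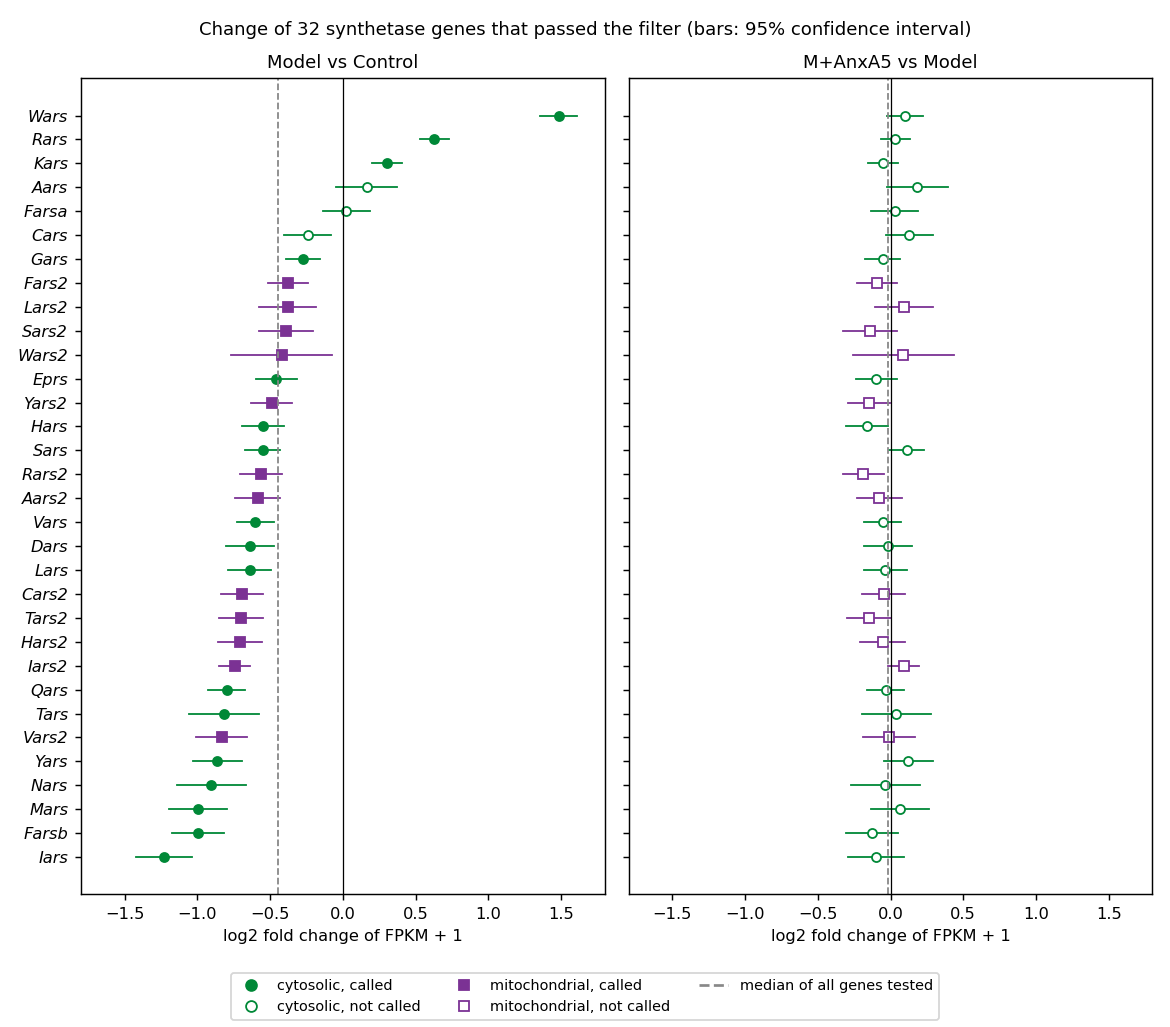
Log2 fold change of FPKM + 1 for 32 of the 33 synthetase genes tested, Model vs Control on the left and M+AnxA5 vs Model on the right, with 95% confidence intervals. Circles are cytosolic and squares mitochondrial genes, filled where called, and the dashed line is the median of all genes tested (-0.45 and -0.02). Wars, Rars and Kars are the filled symbols right of 0, and no symbol is filled on the right.

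Of the remaining cytosolic genes, 9 fell by smaller amounts on the log2 scale. The glutamine enzyme Qars (ratio 0.537), the threonine enzyme Tars (0.517), the leucine enzyme Lars (0.60996), the valine enzyme Vars (0.622), the aspartate enzyme Dars (0.623), the serine enzyme Sars (0.662), the histidine enzyme Hars (0.669) and Eprs (0.692) lay below 0.7 times their Control means. Gars was the least of the falls at 0.8204 (log2 fold change -0.27, adjusted p = 0.000954), close to the fold threshold. Its call was lost without Control replicate 2, Model replicate 1 or Model replicate 3 (log2 fold change from -0.26 to -0.23) and under TPM (-0.20), upper-quartile (-0.024) and quantile scaling (-0.20). Cars had an adjusted p of 0.0109 at a log2 fold change of -0.24, under the fold threshold, and was called lower without Control replicate 3 (-0.28) or Model replicate 2 (-0.29). Of the 5 genes with an ATF4-C/EBP element in their window, Gars, Iars, Tars and Yars were called lower, where 60.3% of all genes tested were, and Aars was not called.

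Summed over the 20 cytosolic genes, the level was 266 to 295 FPKM in the Control libraries and 219 to 229 in Model. Without Wars, Rars and Kars the sum was 222 to 248 FPKM in Control and 141 to 150.0 in Model. These are the genes called higher in this same comparison, so leaving them out by itself deepens the fall of the sum. Of the 17 genes in that second sum, 14 were called lower and Aars, Farsa and Cars were not called.

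Within the multi-synthetase complex the balance of transcripts changed. Of its 8 enzymes, Rars and Kars rose and Dars, Eprs, Iars, Lars, Mars and Qars fell. Rars made up 22.9%, 20.7% and 20.7% of the summed FPKM of the 8 genes in the Control libraries and 40.0%, 38.6% and 39.0% in Model. The share of Iars went the other way, from 12.3% ± 0.63 to 5.52% ± 0.46 (SD, n = 3), and that of Mars from 8.99% ± 0.74 to 4.74% ± 0.23. Kars moved from 13.0% ± 0.31 to 18.9% ± 0.48. These shares come from ratios within a library and do not change with a single scaling factor per library. The summed level of the 8 genes itself was 106 to 118 FPKM in Control and 93.8 to 97.7 in Model.

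**Figure D3:**
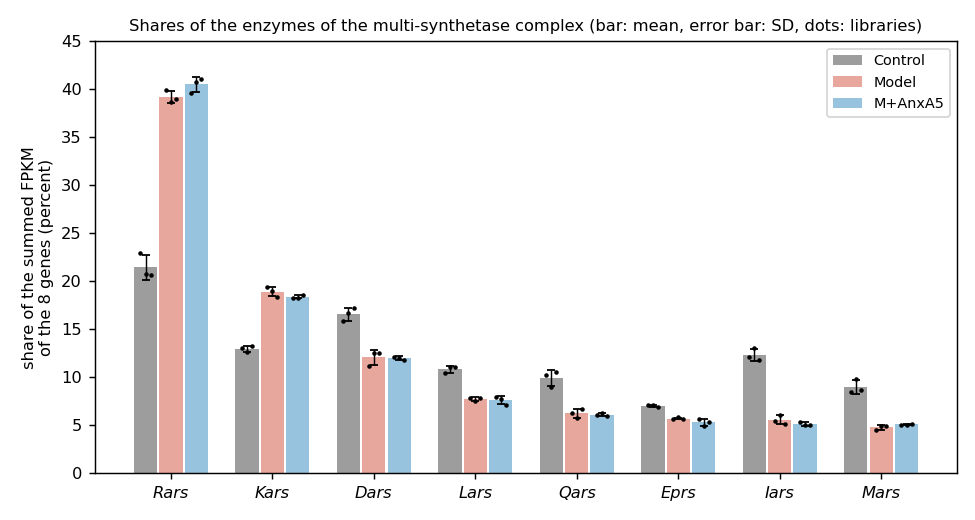
Share (percent) of the 8 enzymes of the multi-synthetase complex in their summed FPKM, with bars at the mean of 3 libraries, error bars of 1 SD and dots for libraries. Rars stands at 21.4% in Control, 39.2% in Model and 40.5% in M+AnxA5, and the 6 genes that fell all lose share.

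The complex is held together by 3 scaffold proteins. Aimp1 (3.997 ± 0.706 to 2.898 ± 0.0823 FPKM) and Aimp2 (6.38 ± 0.585 to 4.43 ± 0.796 FPKM) fell in Model (log2 fold change -0.35 and -0.45, adjusted p = 0.00865 and 0.00556). Eef1e1, which encodes the third, was not called (0.05), but was called higher under upper-quartile scaling (0.27) and quantile normalization (0.44). The call of Aimp1 was lost without Control replicate 2 (-0.25) or the 3 libraries numbered 2 (-0.24). Those of both Aimp1 and Aimp2 were lost under upper-quartile scaling (-0.15 and -0.23) and quantile normalization (0.09 and -0.05).

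All 13 mitochondrial synthetase genes tested fell in Model, where 60.3% of all genes tested did, although Fars2, Lars2, Sars2 and Wars2 were slightly above 0 under quantile normalization, uncalled. Lars2 and Vars2 among them passed the filter only through Control and so had to differ. When all 17 were tested without a filter, 14 were lower and none higher, against 28.4% and 7.45% of all genes in that fit. Ears2, Pars2 and Wars2 were not called there. The medians of the 13 mitochondrial and the 20 cytosolic genes were alike at -0.58, and the median ratio of mean FPKM was 0.532 over the 17 mitochondrial and 0.643 over the 20 cytosolic genes. These calls depended on scaling, with 9 of 13 called lower under upper-quartile scaling (45.7% of all genes tested) and 4 of 13 under quantile normalization (36.1%).

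The largest falls by ratio were among mitochondrial genes of low level. Mars2, the mitochondrial methionine enzyme, read 0.949, 0.931 and 0.799 FPKM in Control but 0.137, 0.141 and 0.121 in Model. Its single annotated transcript of 11294 bases puts about 266 to 316 fragments behind each Control value and 40 to 50 behind each Model value. The ratio was 0.149, and in the fit without a filter the log2 fold change was -0.74 (adjusted p = 4.25e-06). Nars2 read 1.003, 0.906 and 1.08 FPKM in Control and 0.251, 0.264 and 0.387 in Model (ratio 0.301, log2 fold change -0.62 and adjusted p = 0.000321 without a filter). Vars2 read 1.76, 1.89 and 1.61 FPKM in Control and 0.534, 0.4199 and 0.6899 in Model (ratio 0.312, log2 fold change -0.83 and adjusted p = 8.27e-05 without a filter). It passed the filter used elsewhere through Control alone, which by itself sets its groups apart. In these 3 genes the groups did not overlap.

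Iars2 had the lowest adjusted p among the 13 mitochondrial genes tested. Iars2 had 7.04, 6.996 and 6.86 FPKM in Control and 3.66, 3.75 and 3.87 in Model (log2 fold change -0.74, standard error 0.05, adjusted p = 5.92e-07). It shares 2034 bases of transcript sequence with Rab3gap2 on the other strand. Cars2, Hars2, Tars2, Aars2, Rars2, Yars2, Sars2, Lars2 and Fars2 fell to between 0.446 and 0.657 times their Control means. Ears2 (0.799, 1.14 and 1.27 FPKM in Control and 0.824, 0.863 and 0.905 in Model) and Pars2 (0.479, 0.7895 and 0.7205 in Control, 0.385, 0.684 and 0.749 in Model) overlapped between the groups.

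**Figure D4:**
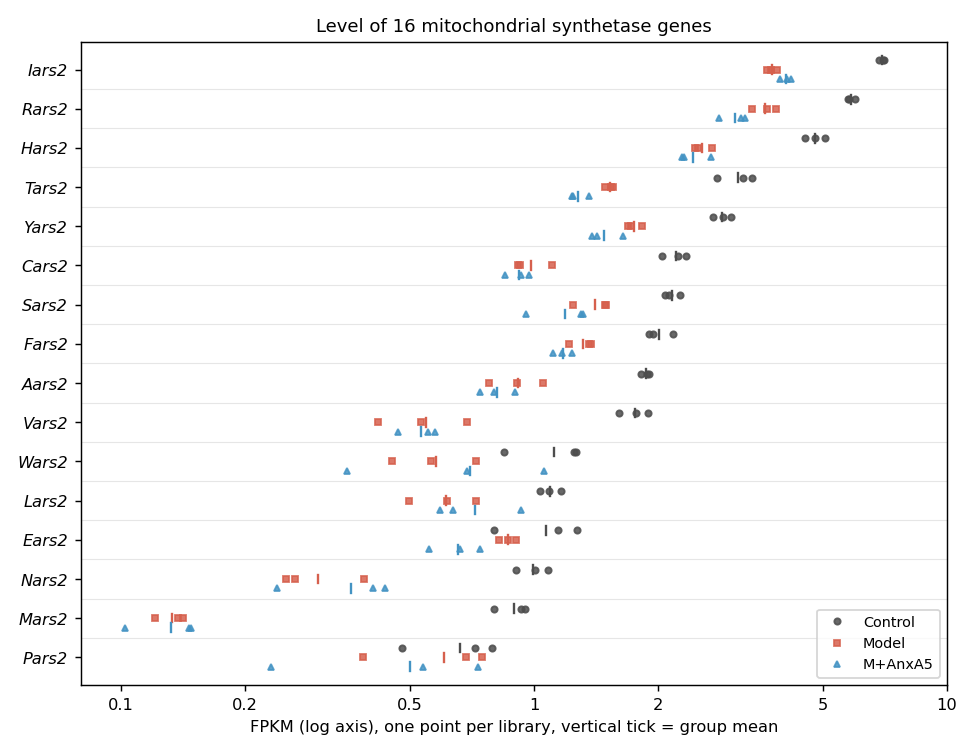
FPKM (log axis) of 16 of the 17 mitochondrial synthetase genes, ordered by their Control mean, with 1 point per library and a vertical tick at each group mean. Control circles lie right of the stimulated libraries in most rows, Mars2 shows the widest gap (ratio 0.149), and Pars2 and Ears2 overlap.

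For tryptophan and arginine, the cytosolic gene rose and the mitochondrial gene fell. Wars rose while Wars2, its mitochondrial counterpart, had 1.25, 0.848 and 1.26 FPKM in Control and 0.452, 0.564 and 0.724 in Model (ratio 0.518, log2 fold change -0.42, adjusted p = 0.028). The call of Wars2 was a weak one, lost without Control replicate 1, Control replicate 3, Model replicate 1 or Model replicate 2 (log2 fold change -0.42 to -0.36), without the 3 libraries numbered 2, without a filter and under TPM, upper-quartile and quantile scaling. Rars rose while Rars2 went from 5.99, 5.75 and 5.79 to 3.85, 3.67 and 3.38 FPKM (ratio 0.622, log2 fold change -0.56, adjusted p = 2.87e-05), a call that was lost under quantile normalization. Across 16 pairs of cytosolic and mitochondrial enzymes for the same amino acid, Eprs counting for both glutamate and proline, the mitochondrial ratio of means was the lower in 12 and the higher in 4 (isoleucine, tyrosine, glutamate and proline). On the log2(FPKM + 1) scale, which understates low genes, the mitochondrial value was the lower in 7 and the higher in 9 of the 16, so the tally depends on the scale. The mitochondrial genes' share of the family's summed FPKM went from 13.2%, 12.6% and 13.3% in Control to 9.18%, 8.87% and 9.31% in Model. This share is a ratio within each library, and the Control and Model libraries did not overlap. The family's sum includes Wars, Rars and Kars, whose rise by itself lowers the share. The mean mitochondrial sum was 41.7 FPKM in Control and 22.4 in Model. The mean cytosolic sum without Wars, Rars and Kars was 233 and 146.

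**Figure D5:**
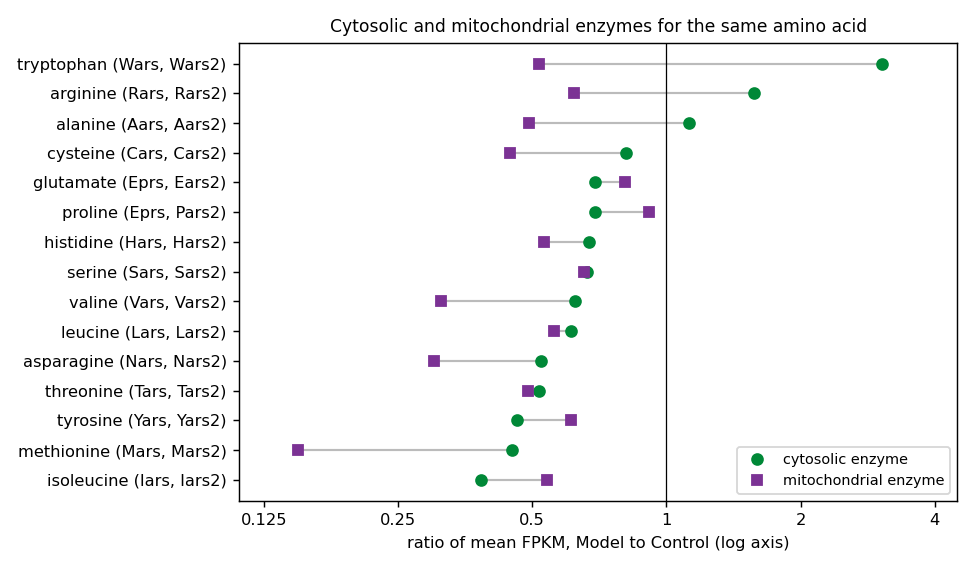
Ratio of mean FPKM, Model to Control (log axis), of the cytosolic (circles) and mitochondrial (squares) enzymes for the same amino acid, with the vertical line at no change. Tryptophan shows the widest gap (3.05 against 0.518), and the square lies left of the circle in 11 of the 15 rows drawn, a tally for ratios of means that differs on the log2(FPKM + 1) scale.

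Genes that work next to the synthetases are read beside the 16.5% of all genes tested that were called higher and the 60.3% called lower. Mitochondria make glutaminyl-tRNA by transamidation, through the complex encoded by Gatb, Gatc and Qrsl1, and start translation with a formylated methionyl-tRNA made by Mtfmt, and all 4 genes fell in Model. Gatc was at 15.4 ± 0.366 FPKM in Control and 4.16 ± 0.336 in Model (log2 fold change -1.67, adjusted p = 1.4e-08), and alone of the 4 kept its call under quantile normalization. All 6 elongation factor genes listed fell, among them Eef1a1, which encodes a factor that brings charged tRNA to the ribosome. Eef1a1 had 1451 ± 14.5 FPKM in Control and 854 ± 14.6 in Model (log2 fold change -0.76, adjusted p = 7.62e-08). The calls of Tufm (-0.26) and Tsfm (-0.20), the mitochondrial members, were lost under upper-quartile scaling, and Tsfm was above 0 under quantile normalization (0.069). The sum over these 6 genes was 1625 to 1652 FPKM in Control and 948 to 974 in Model.

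Of 5 editing and synthetase-related genes tested, 1 rose and 4 fell, where 16.5% and 60.3% of all genes tested did. Tarsl2, a threonyl-tRNA synthetase-like gene, had 1.23 ± 0.201 FPKM in Control and 0.2004 ± 0.0225 in Model (log2 fold change -0.89, adjusted p = 3.01e-06). It is 1 of the 4 falls, but it passed the filter only through Control and so had to differ. Dtd1, which encodes a D-aminoacyl-tRNA deacylase, was the gene that rose and is named for that, with 1.98, 1.75 and 1.94 FPKM in Control and 6.66, 5.61 and 3.13 in Model (log2 fold change 1.04, adjusted p = 0.0068). Its Model libraries were uneven, and the call was lost without the 3 libraries numbered 2 (adjusted p = 0.0664). The partners of EPRS in the human GAIT complex did not share a direction. Gapdh rose from 159.7 ± 6.06 to 289 ± 16.5 FPKM (adjusted p = 1.54e-06), while Rpl13a fell from 166 ± 7.94 to 79.1 ± 1.63 (adjusted p = 4.58e-08) and Syncrip fell too (log2 fold change -0.57, adjusted p = 0.000426). Gapdh, Rpl13a and Eef1a1 have many pseudogene copies in the mouse genome, which makes their values uncertain.

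Of the other genes of the integrated stress response, 8 were higher and 5 lower of 15 tested in Model, where 16.5% and 60.3% of all genes tested were. Slc7a11, a subunit of the cystine transporter, rose to 47.8 ± 7.61 FPKM in Model from 3.61 ± 0.401 (log2 fold change 3.39, adjusted p = 1.68e-08). Psat1 of serine synthesis rose to 48.4 ± 4.14 FPKM in Model from 6.92 ± 1.73 (log2 fold change 2.66, adjusted p = 2.17e-07), and Mthfd2 of mitochondrial folate metabolism from 5.55 ± 0.753 to 12.3 ± 0.648 (adjusted p = 2.5e-06). Atf5, a transcription factor of the response, fell to 6.85 ± 1.04 FPKM in Model from 22.3 ± 1.02 (log2 fold change -1.58, adjusted p = 1.42e-06). Atf4 itself, named after its values were seen, was at 47.97 ± 2.87 and 58.1 ± 4.47 FPKM, and its call was lost without Control replicate 1, Model replicate 1 or Model replicate 2 (log2 fold change 0.22 to 0.25).

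All 8 IFN-γ target genes were called higher, where 16.5% of all genes tested were. Gbp2, an interferon-induced GTPase, rose to 2137 ± 51.2 FPKM in Model from 3.34 ± 0.453 (log2 fold change 8.95, adjusted p = 2.17e-12). Socs1, the feedback inhibitor of the receptor's kinases, rose to 153 ± 4.22 FPKM in Model from 0.642 ± 0.262 (adjusted p = 7.99e-11). Tap1 of antigen transport rose as well (log2 fold change 3.60). The log2 fold change of Wars, 1.48, was smaller than that of these 3. Ido1, which encodes the enzyme that breaks down tryptophan, had every Control value listed at 0, and reached a mean of 1.05 ± 0.141 FPKM in Model. Its log2 fold change, 1.03, was smaller than that of Wars. Ido1, Socs1 and Ciita passed the filter through stimulated libraries alone and so had to differ from Control.

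Markers of the labelled cell type were present, with the summed level of 8 macrophage genes at 13276 to 14342 FPKM in Control and 7710 to 8603 in Model, 4 of them called higher and 4 lower. Lyz2, which makes up most of this sum in M+AnxA5, was among the 4 lower. Its call was lost under quantile normalization (log2 fold change 0.17). Marker sums of other cells were far lower: neutrophil and precursor genes (8) at 253 to 332 FPKM in Control and 281 to 367 in Model (of 7 tested, 2 called higher and 3 lower), fibroblast genes (5) at 95.2 to 159 and 73.7 to 112, B cell genes (4) at 2.102 to 2.519 and 0.19 to 0.29, and T cell and erythroid genes (4 each) at no more than 0.566 in either group. The neutrophil sum is carried by S100a8, S100a9 and Ngp. Elane (6.22 FPKM in Control, 0.127 in Model) and Mpo (4.33 and 0.114) were called lower, as was Ltf. S100a8 was among the 2 called higher, and S100a9 and Ngp were not called, so the list had no common direction. The part that such cells had in the changes of the synthetase genes was not tested.

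Adding AnxA5 to LPS and IFN-γ changed no synthetase gene past the test. Of the 33 genes, 0 were called, and at an unadjusted p under 0.05 there were 3 (Rars2, Hars and Yars2), where 2.76% of all genes tested were called (1.95% higher and 0.815% lower) and 17% had such a p. None was called under any alternative tried. The ratios of means over all 37 genes lay between 0.756 (Ears2) and 1.21 (Wars2), and the median log2 fold change of the 33 was -0.03, against -0.02 over all genes.

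Wars had nearly the same level in both stimulated groups, with means of 21.8 and 23.4 FPKM and libraries that overlapped. Its log2 fold change was 0.10 (95% confidence interval -0.03 to 0.22, adjusted p = 0.414). For Rars the same interval was -0.07 to 0.13 and for Kars -0.15 to 0.05.

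The highest log2 fold changes with AnxA5 were those of Aars, Cars, Yars, Sars and Wars. Aars read 11.5, 11.4 and 12.1 FPKM in Model and 12.8, 13.5 and 13.9 in M+AnxA5 (log2 fold change 0.18, unadjusted p = 0.0791, limma adjusted p = 0.36). All 3 M+AnxA5 libraries of Aars were above all 3 of Model. Cars read 3.27, 3.85 and 3.53 FPKM in Model against 4.04, 3.69 and 4.18 with AnxA5 (limma adjusted p = 0.401). Yars read 1.98, 2.57 and 2.46 FPKM in Model against 2.51, 2.698 and 2.64 with AnxA5 (limma adjusted p = 0.467). In both, the groups overlapped. Sars read 9.46, 9.01 and 10.4 FPKM in Model against 10.4, 10.4 and 10.5 with AnxA5 (limma adjusted p = 0.333), apart by a narrow margin. Iars2 was the third gene with all M+AnxA5 libraries above Model (log2 fold change 0.09), 3 of 33 where 10.6% of all genes tested did so.

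The lowest log2 fold changes were those of Rars2, Hars, Tars2, Yars2 and Sars2, of which 4 are mitochondrial. Rars2 went from 3.85, 3.67 and 3.38 FPKM in Model to 2.802, 3.17 and 3.25 in M+AnxA5, without overlap (log2 fold change -0.19, unadjusted p = 0.0168, limma adjusted p = 0.172). Hars read 12.7, 13.9 and 12.1 FPKM in Model against 12.2, 10.7 and 11.3 with AnxA5 (limma adjusted p = 0.23), and its groups overlapped. Tars2 read 1.53, 1.56 and 1.49 FPKM in Model against 1.23, 1.24 and 1.36 with AnxA5 (limma adjusted p = 0.301). Yars2 read 1.69, 1.72 and 1.83 FPKM in Model against 1.64, 1.38 and 1.42 with AnxA5 (limma adjusted p = 0.273). These differences were thus small beside the changes from Control. Sars2 read 1.24, 1.49 and 1.49 FPKM in Model against 1.298, 1.31 and 0.956 with AnxA5 (limma adjusted p = 0.433), with overlap. Rars2, Tars2, Yars2 and Eprs had all M+AnxA5 libraries under Model, 4 of 33 where 14.2% of all genes tested did. The summed mitochondrial level was 22.1 to 22.8 FPKM in Model and 20.6 to 21.3 in M+AnxA5, and the cytosolic one 219 to 229 and 221 to 226. The mitochondrial sums did not overlap, but this difference was not tested.

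Among the partner genes and those of the integrated stress response, none was called with AnxA5, except that Ddit3 was called higher without Control replicate 1 (log2 fold change 0.34). Of the 8 IFN-γ targets, Ciita, the regulator of MHC class II genes, rose to 12.5 ± 0.193 FPKM from 6.96 ± 0.297 in Model (log2 fold change 0.76, adjusted p = 0.00204), and the other 7 were not called. The macrophage marker sum, most of it Lyz2, was 6891 to 7792 FPKM in M+AnxA5, and T cell and erythroid markers summed to no more than 0.892. Adgre1 was called lower (-0.35) and Cd68 higher (0.36) than in Model. Both calls were lost without the 3 libraries numbered 2, where 8 of all genes were called higher and 3 lower. The call of Cd68 was also lost without a filter and without M+AnxA5 replicate 2 or 3 or Model replicate 2 or 3. That of Adgre1 was also lost without M+AnxA5 replicate 3.

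Against Control, the cells with LPS, IFN-γ and AnxA5 showed 3 synthetase genes higher and 26 lower, where 16.4% and 61.1% of all genes tested were called. This comparison uses the same Control libraries as the first and is given for the members' own values. Wars was 3.27 times (log2 fold change 1.58, adjusted p = 1.16e-08) and Rars 1.61 times the Control mean (0.66, adjusted p = 7.5e-07). Aars was the third called higher (ratio 1.29, log2 fold change 0.35, adjusted p = 0.00641), with its lowest M+AnxA5 library, 12.8 FPKM, just above the highest of Control, 12.3. Kars stood at a log2 fold change of 0.25 (adjusted p = 0.000638), under the fold threshold, and crossed it without Control replicate 2 (0.28) or M+AnxA5 replicate 1 (0.26). The test of Aars between M+AnxA5 and Model did not pass, so the calls for Aars and Kars in 1 comparison and not the other do not show a difference between the stimulated groups.

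The lowest genes against Control were Iars (0.352 times, log2 fold change -1.33), Farsb (0.432, -1.12), Nars (0.512, -0.94), Mars (0.476, -0.93) and Tars2 (0.411, -0.85), all called lower. Of the mitochondrial genes 12 of 13 were lower, Lars2 among them turning above 0 under quantile normalization (0.16), and Wars2 was not called (-0.33, adjusted p = 0.0673). Its M+AnxA5 libraries ran from 0.353 to 1.06 FPKM, and it was called lower without Control replicate 2 (-0.43) or M+AnxA5 replicate 3 (-0.48). The call of Lars2 was lost without M+AnxA5 replicate 1 (-0.26) or replicate 2 (-0.24). Lars2 and Vars2 passed the filter through Control alone and so had to differ from it. Aars2 and Cars2 also had every M+AnxA5 library under 1 FPKM and every Control library above it. Under quantile normalization 6 were higher and 17 lower (all genes 24.9% and 37.4%). In the complex, Rars made up 39.7%, 40.8% and 41.1% of the summed FPKM of the 8 enzymes in the M+AnxA5 libraries.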

How the data were processed

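RNA-seq libraries of mouse BMDMs (3 each of Control, Model and M+AnxA5) were made from poly(A) RNA with dUTP strand marking. The authors deposited FPKM values, computed by a sequencing company. The submitters' processing notes name cutadapt 1.9, STAR, StringTie 2.1.6, DESeq2, edgeR and mm10, with no role or order. Whether counting used strand, so that overlapping antisense genes are told apart, is not given in the sources used here.

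From the deposited FPKM, log2(FPKM + 1) of 11657 genes (at least 1 FPKM in at least 3 of 9 libraries) was fitted over all 9 libraries with limma 3.58.1 (R 4.3.3, trended variance, Benjamini-Hochberg adjustment). A call needs an adjusted p under 0.05 and a fold over 1.2. Fits were tested on simulated data. All 37 members were found in GENCODE M21 (55154 of 55335 IDs matched). Promoters are from RefSeq tables.

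Values by library are given for Wars and for the 5 highest and 5 lowest log2 fold changes of Model vs Control and of M+AnxA5 vs Model. For M+AnxA5 vs Control they are given only in part. From other lists, up to 4 called genes with the lowest adjusted p are named. Adgre1, Atf4, Cd68, Ddit3, Dtd1, Eef1e1, Elane, Ido1, Ltf, Mpo, Ngp, S100a8, S100a9, Tsfm and Tufm were chosen after their values were seen. Members and lists were chosen with earlier results of these data known. Alternatives were pseudocount 0.1, no filter, a mean of at least 5 FPKM, TPM, upper-quartile and quantile scaling, no trend, 6 libraries per fit, a replicate block and each library left out. Some items, 1 mitochondrial synthetase gene among them, are counted but not reported singly here.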

Additional observations from a re-analysis of the deposited data

How the results depend on the processing

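With a mean of at least 5 FPKM required, 18 synthetase genes were tested and 16 called in Model vs Control and 16 in M+AnxA5 vs Control, against 30 and 29 with the filter used throughout. Of all 5874 genes in that fit, 1361 were higher and 3049 lower in Model vs Control, and 1349 and 3132 in M+AnxA5 vs Control. The stricter filter removed all mitochondrial genes but none of the 3 higher calls of Model vs Control. Leaving out each library in turn gave 28 to 30 called genes in Model vs Control, 28 to 31 in M+AnxA5 vs Control and 0 in each case in M+AnxA5 vs Model. Quantile normalization turned the sign of Wars2 (0.0042), Fars2 (0.086), Lars2 (0.080) and Sars2 (0.076) in Model vs Control and of Lars2 (0.16) and Cars (0.32) in M+AnxA5 vs Control. Of these, Cars in M+AnxA5 vs Control passed the test there, as higher, and the others did not. The cause was not tested.

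Same-numbered libraries of different groups correlated weakly in their deviations from the group means (0.0156 to 0.206 over 9 pairs, 3 of them over 0.1). All of these were positive, whereas differently numbered libraries ran from -0.232 to 0.0993, most of them negative. Not every library correlated best with its own number. The numbers were not taken as pairing in the main fit, and the labels do not say whether they mark a batch. With a replicate block, 30 synthetase genes were called in Model vs Control, 0 in M+AnxA5 vs Model and 30 in M+AnxA5 vs Control, where the fit without it called 29, the added call being Wars2, as lower. Over all genes, the block moved the calls of M+AnxA5 vs Model from 227 higher and 95 lower to 138 and 47.

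Changes of genes near or under 1 FPKM are understated on the log2(FPKM + 1) scale, so that Ears2, Nars2, Mars2 and Pars2 are described by their values and the fit without a filter.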
